A study of Mus musculus with 6 samples.

Results

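The glycolysis and hypoxia genes are 34 genes chosen by name from the pathway that carries glucose to lactate and from the oxygen-sensing system that controls it. They were looked up among MoGene 1.0 ST probesets annotated to 1 gene symbol, and the probeset with the highest mean over the arrays stood for a gene. Of the 34, 31 had such a probeset, of 19938 genes on the array that did, and 30 lay above the filter on dim probesets and were tested among 14994 genes. Gpi1 (glucose phosphate isomerase), Gapdh and Eno1 (enolase) had no probeset with 1 symbol and are not analysed here.

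The series compared KSL SLAM cells, a fraction of mouse bone marrow that carries c-Kit, Sca-1 and CD150 and lacks CD48, CD41 and the markers of mature lineages, and that is enriched for haematopoietic stem cells. One group of mice had received G-CSF, the cytokine that drives granulocyte production and stem cell mobilization, at 125 mcg/kg in 2 subcutaneous injections per day for 7 days. The other had received PBS for 7 days, and the labels give no genotype, strain or age for either. Each group had 3 arrays, and the design text gives 5 to 10 mice for each of these independent groups of animals, called pools here, so the spread is that between pools. RNA was amplified before hybridisation and all values below are log2 of the deposited RMA intensity, where a difference is G-CSF minus PBS. Array medians ran from 56.2 to 61.7 intensity units. Precision is limited by having 3 arrays in a group.

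Glycolysis splits glucose into pyruvate, which either becomes lactate or enters mitochondria through pyruvate dehydrogenase. Hypoxia-inducible factors raise the transcription of glucose transporters, of most glycolytic enzymes and of the kinases that shut off pyruvate dehydrogenase, while prolyl hydroxylases mark their alpha subunits for destruction when oxygen is present. Quiescent haematopoietic stem cells are known for high glycolysis and stable HIF-1 alpha, and neutrophils also rely on glycolysis.

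At the promoters, the sequence that hypoxia-inducible factors recognise could be searched for in 32 of the 34 genes. RefSeq starts (GRCm38.p6) gave 47 windows of 250 bases before a start site, and no window was listed for Epas1 and Slc2a3. The core of the hypoxia response element was searched as ACGTG or GCGTG on both strands, with overlapping matches counted, and was found in 80.9% of these windows and in 30 of the 32 genes (93.8%), all but Gpi1 and Tpi1. Among all 32851 windows listed, 38.6% held it, and 41.5% of 27025 genes. Both motifs hold a CG, and the members' windows had a median of 14 CG pairs and 60.4% G and C bases, against 6 and 52.4% over all windows. A match is a description of the letters and no measured binding. Windows with a match are shown for the 3 genes without overlap between groups (Slc2a1, Pfkfb3 and Pfkfb4) and for Pdk1, the member with the most negative difference, 5′ to 3′ on the strand of the gene with the matches in capitals.
Slc2a1, chr4:119108495-119108744, plus strand: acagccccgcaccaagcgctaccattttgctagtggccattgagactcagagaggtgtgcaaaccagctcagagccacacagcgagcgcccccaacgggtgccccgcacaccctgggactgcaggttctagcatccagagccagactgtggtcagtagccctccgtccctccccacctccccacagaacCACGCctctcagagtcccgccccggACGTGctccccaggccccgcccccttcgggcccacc
Pfkfb3 at its first listed start, chr2:11553930-11554179, minus strand: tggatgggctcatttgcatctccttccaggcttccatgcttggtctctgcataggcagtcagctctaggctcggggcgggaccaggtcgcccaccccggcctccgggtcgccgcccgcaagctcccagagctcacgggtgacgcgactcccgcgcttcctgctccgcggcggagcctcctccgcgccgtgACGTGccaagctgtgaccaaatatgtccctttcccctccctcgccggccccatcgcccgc
Pfkfb3 at its second listed start, chr2:11502091-11502340, minus strand: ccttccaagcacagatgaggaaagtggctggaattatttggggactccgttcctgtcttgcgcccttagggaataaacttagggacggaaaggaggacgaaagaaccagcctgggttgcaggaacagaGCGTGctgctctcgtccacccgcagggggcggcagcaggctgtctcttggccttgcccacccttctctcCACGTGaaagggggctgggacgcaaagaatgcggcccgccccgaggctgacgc
Pfkfb4, chr9:108991652-108991901, plus strand: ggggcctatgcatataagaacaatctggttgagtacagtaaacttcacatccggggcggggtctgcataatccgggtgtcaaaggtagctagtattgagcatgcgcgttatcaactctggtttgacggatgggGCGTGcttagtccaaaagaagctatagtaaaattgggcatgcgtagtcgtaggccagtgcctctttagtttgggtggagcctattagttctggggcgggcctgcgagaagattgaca
Pdk1 at its first listed start, chr2:71872974-71873223, plus strand: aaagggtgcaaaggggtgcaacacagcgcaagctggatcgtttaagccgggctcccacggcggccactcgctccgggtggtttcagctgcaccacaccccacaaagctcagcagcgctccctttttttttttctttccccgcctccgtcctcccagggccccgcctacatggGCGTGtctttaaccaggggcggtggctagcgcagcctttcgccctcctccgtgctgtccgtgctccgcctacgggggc
In the window of the second Pfkfb3 start the ACGTG match is read on both strands of a palindrome.

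None of the 30 tested members passed at a limma adjusted p under 0.05, where 4 of all genes (0.0267%) passed as higher and 0 as lower. The smallest adjusted p of a member was 0.669 (Pfkfb3) and the next 0.847 (Slc2a1). At an unadjusted p under 0.05 there was 1 higher member, Pfkfb3, and 0 lower members, against 2.73% of all tested genes higher and 3.3% lower. In 3 members the lowest G-CSF array was above the highest PBS array, and 0 members showed the opposite, against 5.77% and 5.05% of all genes. One of the 3, Pfkfb4, had a PBS mean of 5.12, under the filter limit of 5.15, so it was tested only because its G-CSF arrays were brighter, and it drops out with the lowest 50% of probesets left out, which leaves 2. The median difference of the members was 0.06, with 20 positive and 10 negative, and that of all tested genes was 0.0015. Leaving out 1 array moved these counts, to 3 higher members at an unadjusted p under 0.05 without G-CSF replicate 3, to 2 without PBS replicate 1 or 3, and, for lower members, to 2 without PBS replicate 1 and to 1 when G-CSF replicate 3 was the array left out. In 20 of the 30 members the 95% interval of the difference excluded a change of 2-fold in either direction, while in 5 it reached a 2-fold rise and in 5 a 2-fold fall. A p that misses the threshold does not show that the groups were alike.

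**Figure D1:**
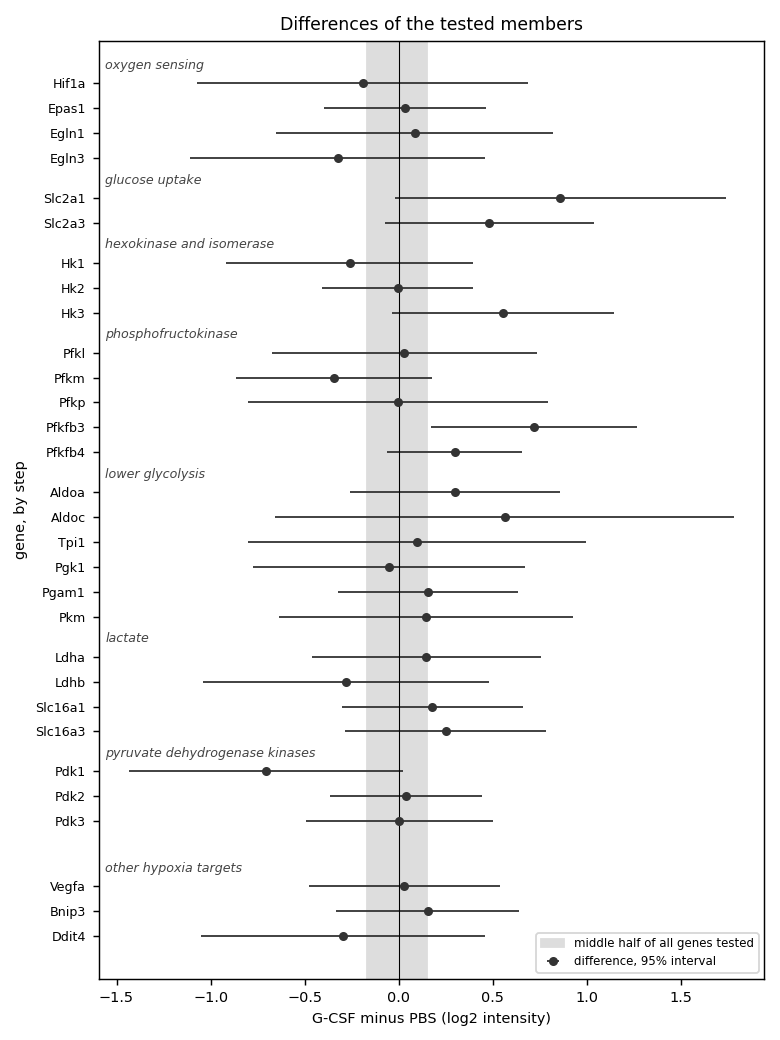
G-CSF minus PBS differences (log2 intensity) of the 30 tested glycolysis and hypoxia genes in order of pathway step, with limma's 95% intervals. The grey band spans all tested genes between their quartiles (-0.17 to 0.15). The interval of Pfkfb3 (0.17 to 1.27) lies wholly above 0 and none lies wholly below.

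**Figure D2:**
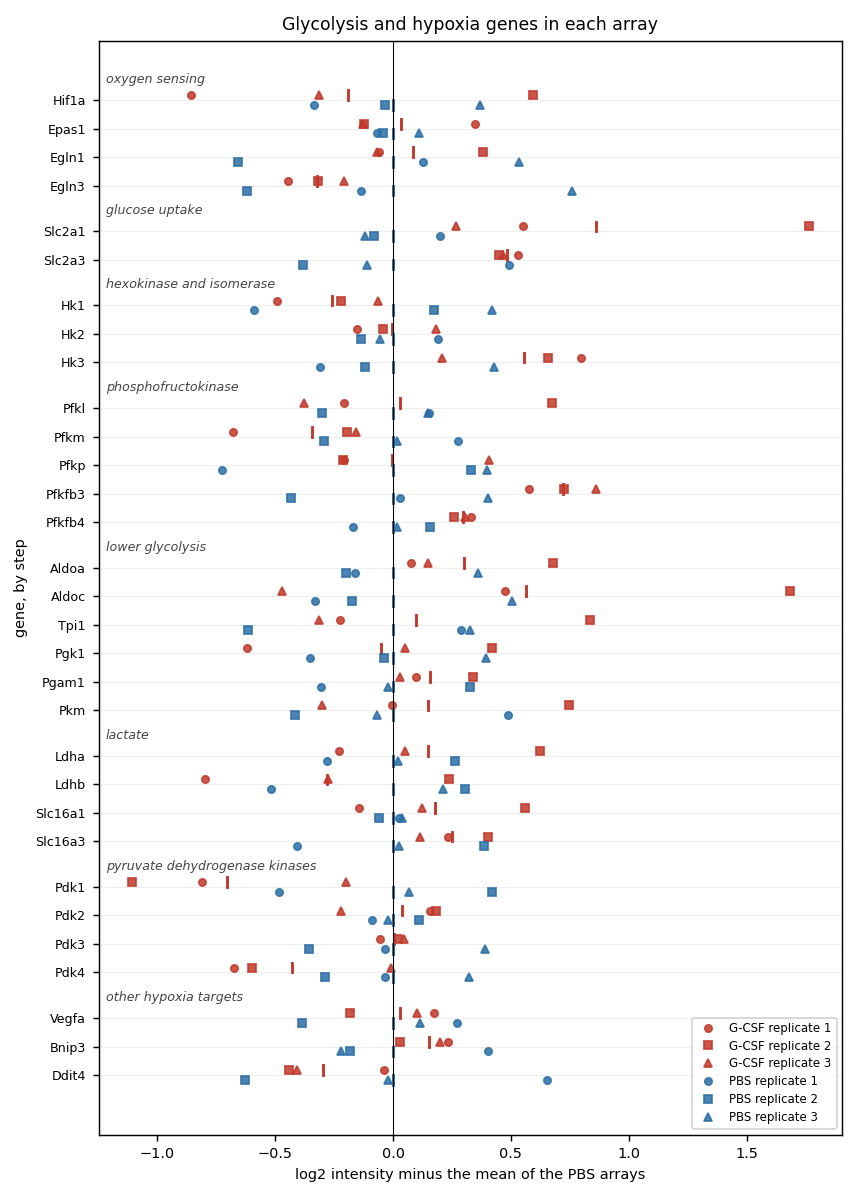
Log2 intensity of each of the 31 measured genes in every array, minus that gene's PBS mean. Red points are G-CSF arrays, blue points PBS arrays, symbols give the replicate and short vertical bars the group means. In Slc2a1, Pfkfb3 and Pfkfb4 the red points all lie right of the blue ones, and in the other genes the groups overlap.

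The label of the cells was set against marker genes. A list of stem cell genes had 7 measured genes (Kit, Slamf1, Procr, Tek, Cd34, Mecom and Hlf), and all lay above the filter limit. Of these, only Kit (c-Kit) and Slamf1 (CD150) encode markers named for the gate, and Sca-1 was not in the list. The mean log2 intensity of the 7 was 7.68 to 7.94 in G-CSF arrays and 8.18 to 8.31 in PBS arrays. Mature neutrophil markers were also present in every array, including PBS. The 15 measured markers summed to 30603 to 37843 intensity units in G-CSF arrays and to 10032 to 17383 in PBS arrays, and in 14 of them the groups did not overlap, all but Ly6g. Of 8 granulocyte-monocyte progenitor genes, 6 were higher in G-CSF without overlap (summed 4684 to 7275 against 2742 to 4537), as were 4 of 7 measured mitotic genes (1116 to 1363 against 637 to 887). The 8 measured monocyte and macrophage genes summed to 2042 to 2683 in G-CSF arrays and to 999.7 to 1761 in PBS arrays. Lyz2 was by far the brightest of them (mean 10.77 in G-CSF, 9.61 in PBS) and so weighs most in these sums. Of the 7 tested, 4 were higher without overlap (Csf1r, Ccr2, F13a1 and Lyz2), and Cx3cr1, Ly86 and Cd68 overlapped. A list of CD48, CD41 and lineage markers also held Ptprc (CD45), its brightest gene (mean 10.13 in G-CSF, 9.69 in PBS). Ptprc is not read here as a lineage marker. The list had 8 tested genes, all with means above the filter limit. Of these, 1 was higher without overlap, Itgam (CD11b), a myeloid surface marker, by 1.76 (SE 0.44), and 0 were lower. The list had 3 positive and 5 negative differences, with a median of -0.06. Of 7 megakaryocyte and platelet genes, Pf4 (-1.92, SE 0.37) and Mmrn1 (-1.52, SE 0.33) were lower without overlap and Itgb3 (0.45, SE 0.15) was higher. In the stem cell list, Kit (-0.98, SE 0.23) and Tek (-0.48, SE 0.19) were lower without overlap. Of 7 T and NK cell markers 5 had means under the filter limit, and so had 3 of 7 B cell markers. No marker passed after adjustment by limma, where 14 neutrophil markers were at an unadjusted p under 0.05. The part of neutrophil, monocyte, progenitor, megakaryocyte and mitotic transcripts in the results on glycolysis genes was not tested, and in sorted pools fewer cells of a type and less RNA per cell cannot be told apart.

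The oxygen sensors and the HIF subunits they act on did not differ beyond the spread of the pools. Hif1a, the oxygen-regulated subunit of HIF-1, had 6.70, 8.15 and 7.25 in G-CSF arrays, against 7.22, 7.52 and 7.93 in PBS arrays. G-CSF replicate 1 was the lowest of all 6 arrays and G-CSF replicate 2 the highest. The difference was -0.19 (SE 0.38, 95% interval -1.07 to 0.69), which became 0.14 when G-CSF replicate 1 was left out and -0.59 when G-CSF replicate 2 was. Epas1, which encodes HIF-2 alpha, differed by 0.03 (SE 0.18, interval -0.40 to 0.47), with arrays between 5.92 and 6.40. Egln1, the main HIF prolyl hydroxylase, differed by 0.09 (SE 0.31). Egln3, a hydroxylase that is itself induced by hypoxia, had 5.31, 5.43 and 5.55 in G-CSF arrays, against 5.61, 5.13 and 6.51 in PBS arrays. The PBS pools were spread far wider than the G-CSF pools, and its difference of -0.32 (SE 0.33) became 0.05 without PBS replicate 3.

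Both glucose transporters had positive differences. Slc2a1 (GLUT1), the widely expressed basal transporter, had 7.44, 8.65 and 7.16 in G-CSF arrays, against 7.09, 6.81 and 6.77 in PBS arrays. The groups did not overlap, yet the gap between the lowest G-CSF and the highest PBS array was narrow and 1 pool, G-CSF replicate 2, stood far above the rest. Slc2a1 averaged 7.75 ± 0.79 in G-CSF and 6.89 ± 0.17 in PBS arrays (SD, n = 3 each), a difference of 0.86 (SE 0.37, interval -0.02 to 1.74, 1.82-fold, limma adjusted p = 0.847). Without G-CSF replicate 2 the difference was 0.41. Slc2a3 (GLUT3), a high-affinity transporter, had 8.07, 7.99 and 8.01 in G-CSF arrays, against 8.04, 7.16 and 7.43 in PBS arrays. The G-CSF pools were nearly equal and PBS replicate 1 lay among them, with a difference of 0.48 (SE 0.24, adjusted p = 0.863) that was 0.73 when PBS replicate 1 was left out and 0.29 when PBS replicate 2 was.

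Hexokinases trap glucose in the cell by phosphorylation, and of their 3 measured isozymes none passed after adjustment. Hk3, the isozyme known from myeloid cells, had 7.49, 7.35 and 6.90 in G-CSF arrays, against 6.39, 6.57 and 7.12 in PBS arrays. Only G-CSF replicate 3 and PBS replicate 3 overlapped. The difference was 0.55 (SE 0.25, interval -0.03 to 1.14, 1.47-fold, adjusted p = 0.855), between 0.40 and 0.77 with each array left out. Hk2, the isozyme that hypoxia and growth factors induce, differed by -0.0046 (SE 0.17, interval -0.41 to 0.40). The within-array log2 ratio of Hk3 to Hk2 was higher in G-CSF by 0.56, with overlap between groups (exact two-sided permutation p = 0.2, adjusted p = 0.5 over 15 isozyme pairs).

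Hk1, the isozyme of most tissues, was represented by a probeset that shares its annotation with a ribosomal protein gene. That probeset is listed under 1 transcript record, and the same record is listed for all 16 probesets annotated to both Hk1 and Rpl17, a ribosomal protein gene. It had 11.47, 11.74 and 11.90 in G-CSF arrays, against 11.37, 12.14 and 12.38 in PBS arrays, while the mean of the 16 shared probesets was 11.22, 11.25 and 11.87 in G-CSF arrays, against 11.41, 11.81 and 12.26 in PBS arrays. In both, PBS replicate 3 was the highest array. The other Hk1 probeset, listed under 8 records, also shares at least 1 record with each of the 16. It had 6.65, 7.40 and 6.40 in G-CSF arrays, against 7.37, 6.61 and 7.30 in PBS arrays, so its highest array was G-CSF replicate 2. The differences were -0.26 (SE 0.28) for the first and -0.28 (SE 0.32) for the second. The order of the arrays was not the same, and whether either probeset measures Hk1 was not tested.

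Of the 5 genes of the phosphofructokinase step, which commits sugar to glycolysis, 3 had positive differences (Pfkfb3, Pfkfb4 and Pfkl) and none passed after adjustment. Pfkfb3, a kinase that makes the allosteric activator of phosphofructokinase and is a known hypoxia target, had 6.69, 6.84 and 6.98 in G-CSF arrays, against 6.15, 5.68 and 6.52 in PBS arrays. The G-CSF pools lay close together above the more scattered PBS pools. It averaged 6.84 ± 0.14 in G-CSF and 6.12 ± 0.42 in PBS arrays (SD, n = 3 each), a difference of 0.72 (SE 0.23, interval 0.17 to 1.27, 1.65-fold, limma unadjusted p = 0.0170, adjusted p = 0.669), and it was 0.50 without PBS replicate 2 and 0.92 without PBS replicate 3. Pfkfb4, a paralog also induced by hypoxia, had 5.45, 5.38 and 5.43 in G-CSF arrays, against 4.95, 5.28 and 5.14 in PBS arrays. The groups did not overlap, with a difference of 0.30 (SE 0.15, adjusted p = 0.884), but 2 of the PBS arrays lay under the filter limit of 5.15, so the gene was dim. The catalytic subunits Pfkl (liver type, 0.03, SE 0.30), Pfkm (muscle type, -0.34, SE 0.22) and Pfkp (platelet type, -0.0033, SE 0.34) overlapped between groups. The ratio of Pfkm to Pfkl differed by -0.37 (exact two-sided permutation p = 0.4, adjusted p = 0.75) and that of Pfkfb4 to Pfkfb3 by -0.42 (p = 0.2, adjusted p = 0.5, same exact permutation test).

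**Figure D3:**
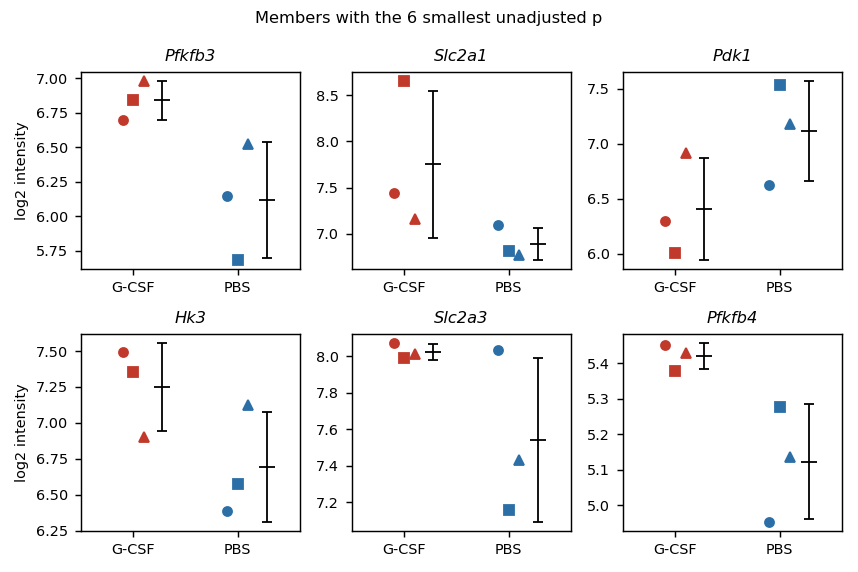
Log2 intensity in each array of the 6 members with the smallest unadjusted p, G-CSF arrays in red and PBS arrays in blue, with symbols for the replicates and bars for mean ± SD (n = 3 each). The groups separate in Pfkfb3, Slc2a1 and Pfkfb4, and in Slc2a1 the G-CSF replicate 2 array (8.65) sets the spread.

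Of the 6 measured genes from aldolase to pyruvate kinase, 5 had positive differences and all overlapped between groups, with a median of 0.15. Aldoc, the aldolase isozyme known from brain, had 6.85, 8.06 and 5.90 in G-CSF arrays, against 6.04, 6.20 and 6.87 in PBS arrays. G-CSF replicate 2 was the highest and G-CSF replicate 3 the lowest of all arrays. The difference of 0.56 (SE 0.52, interval -0.66 to 1.78) was 0.0029 without G-CSF replicate 2. Aldoa, the aldolase of most tissues, differed by 0.30 (SE 0.24), Tpi1 (triose phosphate isomerase) by 0.10 (SE 0.38), Pgam1 (phosphoglycerate mutase) by 0.16 (SE 0.20) and Pkm (pyruvate kinase) by 0.15 (SE 0.33). Pgk1 (phosphoglycerate kinase) differed by -0.05 (SE 0.31), and its 3 probesets gave differences between -0.06 and -0.05. Of the 3 probesets each of Pgk1 and Pgam1, 2 hold identical values, and the second Pkm probeset differed by 0.09 (SE 0.22).

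In each group 1 pool was often the highest. G-CSF replicate 2 was the highest G-CSF array in 15 of the 30 tested members (50%), against 34.8% of all tested genes, and these included Aldoa, Aldoc, Tpi1, Pgk1, Pgam1, Pkm, Ldha and Ldhb. The same pool had the highest mean of the mature neutrophil markers (10.11, against 9.53 and 9.55 in the other G-CSF pools) and of the progenitor markers (8.80, against 8.05 and 8.06). It was also the highest G-CSF pool for the stem cell list (7.94, against 7.68 and 7.89). So it was for the list of CD48, CD41, Ptprc and lineage markers (7.04, against 6.54 and 6.54). The same held for erythroid genes (6.05, against 5.66 and 5.93) and B cell markers (5.87, against 5.54 and 5.35). In the monocyte, megakaryocyte, T and NK cell and mitotic lists another G-CSF pool was higher. Among PBS arrays, replicate 3 was the highest in 14 of the 30 (46.7%), against 34.2% of all tested genes. Without G-CSF replicate 2 the median of the lower glycolytic genes was -0.08 in place of 0.15, and that of all members -0.0086 in place of 0.06. The part of neutrophil transcripts in this pattern was not tested.

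**Figure D4:**
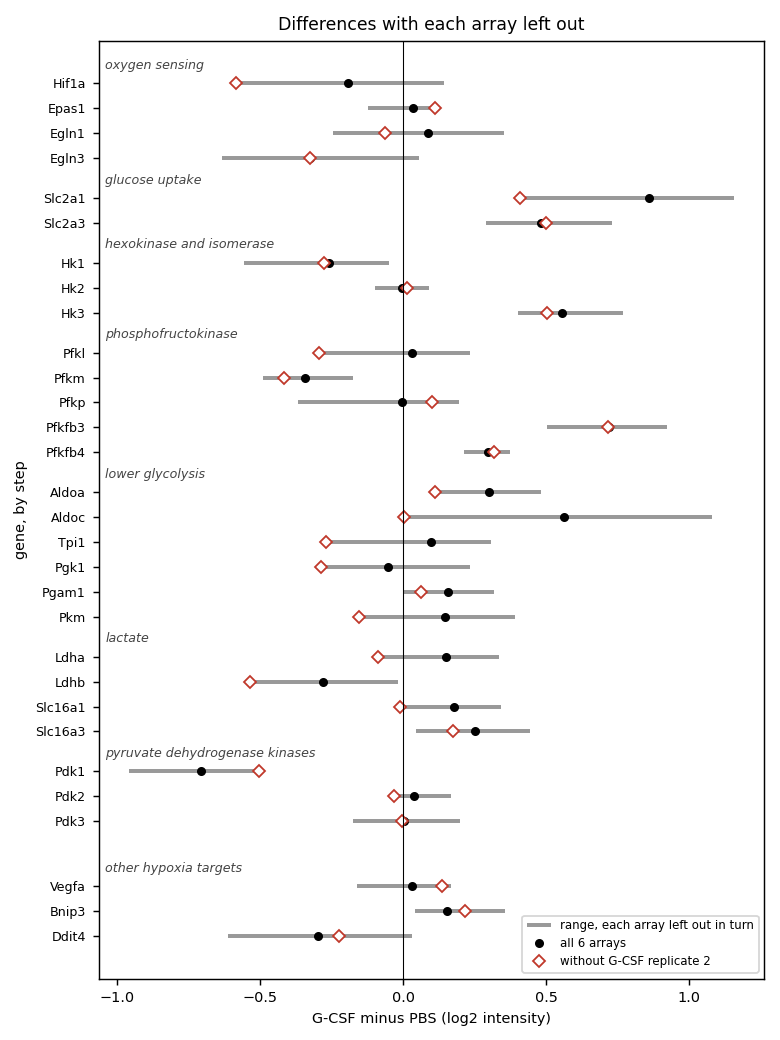
G-CSF minus PBS differences (log2 intensity) with all 6 arrays (black), without G-CSF replicate 2 (open red diamonds) and over each array left out in turn (grey range). The difference of Slc2a1 is 0.86 with all arrays and 0.41 without that pool, those of Aldoc, Tpi1 and Hif1a also lie further left without it, and that of Pfkfb3 is 0.72 in both.

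Lactate genes gave the 1 isozyme pair, of 15 compared, whose within-array ratio did not overlap between groups. Ldhb, whose subunit favours the conversion of lactate to pyruvate, had 7.06, 8.10 and 7.59 in G-CSF arrays, against 7.35, 8.17 and 8.07 in PBS arrays. Ldha, whose subunit favours lactate formation and which HIF-1 induces, had 7.91, 8.76 and 8.19 in G-CSF arrays, against 7.85, 8.40 and 8.16 in PBS arrays. Each gene alone overlapped between groups, with differences of -0.28 (SE 0.32) for Ldhb and 0.15 (SE 0.26) for Ldha, and both were high or low in the same pools. The log2 ratio of Ldhb to Ldha was -0.84, -0.66 and -0.60 in G-CSF arrays, against -0.51, -0.23 and -0.08 in PBS arrays. It was lower in every G-CSF array, by 0.43 on average (change -0.43), with an exact two-sided permutation p = 0.1, the smallest that 3 against 3 arrays allow, and an adjusted p of 0.5 over the 15 pairs. The change lay between -0.54 and -0.33 with each array left out, and was -0.53 with the other Ldhb probeset. Since no exact p under 0.1 was possible, no pair could pass the threshold, with or without adjustment. The test therefore cannot decide whether Ldhb and Ldha differed unequally. A p of 0.1 is also the chance that a given pair separates fully when the groups do not differ, and 15 pairs were compared. The monocarboxylate transporters, which carry lactate across the membrane, differed by 0.18 (Slc16a1, SE 0.21) and 0.25 (Slc16a3, the isoform known for lactate export, SE 0.23).

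The kinases that inactivate pyruvate dehydrogenase held the most negative difference among the members. Pdk1, a known HIF-1 target, had 6.30, 6.01 and 6.92 in G-CSF arrays, against 6.63, 7.53 and 7.18 in PBS arrays. G-CSF replicate 3 lay above PBS replicate 1, and otherwise the G-CSF arrays were the lower ones. The difference was -0.71 (SE 0.31, interval -1.43 to 0.02, 0.61-fold, adjusted p = 0.851), between -0.96 and -0.50 with each array left out. Pdk2 differed by 0.04 (SE 0.17, interval -0.36 to 0.44) and Pdk3 by 0.0032 (SE 0.21, interval -0.49 to 0.50). Pdk4, a kinase induced by fasting, was under the filter limit and not tested, with 4.35, 4.42 and 5.01 in G-CSF arrays, against 4.99, 4.73 and 5.34 in PBS arrays. The ratio of Pdk2 to Pdk1 was higher in G-CSF by 0.74 and that of Pdk3 to Pdk1 by 0.71, both with overlap (exact two-sided permutation p = 0.2 and 0.3, adjusted p = 0.5 and 0.643).

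Hypoxia targets outside glycolysis were spread around 0. Vegfa, the endothelial growth factor, differed by 0.03 (SE 0.22, interval -0.48 to 0.54). Bnip3, a mitochondrial receptor for mitophagy, differed by 0.15 (SE 0.21), with 7.61, 7.41 and 7.58 in G-CSF arrays, against 7.79, 7.20 and 7.16 in PBS arrays. Its second probeset had 7.68, 7.31 and 6.59 in G-CSF arrays, against 7.70, 5.64 and 5.89 in PBS arrays, and differed by 0.78 (SE 0.55). Both probesets had their highest array in PBS replicate 1, but their differences were 0.15 and 0.78, so the size of the Bnip3 difference is unsettled. Ddit4 (REDD1), an inhibitor of mTORC1, had 7.05, 6.64 and 6.67 in G-CSF arrays, against 7.74, 6.45 and 7.06 in PBS arrays. The PBS pools covered a wider range than the G-CSF pools, and the difference of -0.30 (SE 0.32) was 0.03 without PBS replicate 1.

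Other genes of these pathways were taken from 7 further lists of 97 genes, of which 90 had a probeset with 1 symbol and 80 were tested. None passed by limma after adjustment, and 6 were higher and 4 lower at an unadjusted p under 0.05 (background 2.73% and 3.3%), with 3 higher when G-CSF replicate 2, G-CSF replicate 3, PBS replicate 1 or PBS replicate 2 was left out and 1 lower without PBS replicate 3. The median difference was 0.01. Pdha1, the catalytic subunit of pyruvate dehydrogenase on which the Pdk kinases act, had 6.64, 6.66 and 6.59 in G-CSF arrays, against 7.37, 8.05 and 7.73 in PBS arrays. Every G-CSF array lay well below every PBS array, with a difference of -1.09 (SE 0.20, interval -1.55 to -0.62, 0.47-fold, limma adjusted p = 0.257). The other tested genes of pyruvate entry into mitochondria overlapped between groups.

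Among glycolytic isozymes and regulators, Adpgk (ADP-dependent glucokinase) had 6.98, 7.88 and 6.59 in G-CSF arrays, against 6.22, 5.94 and 6.32 in PBS arrays, a difference of 0.99 (SE 0.33, adjusted p = 0.681). Bpgm (bisphosphoglycerate mutase), known from red cells, had 6.34, 5.99 and 6.70 in G-CSF arrays, against 6.71, 7.44 and 7.15 in PBS arrays, a difference of -0.76 (SE 0.26, adjusted p = 0.708). In both genes the groups were apart, for Bpgm by a narrow gap. Of the 11 tested genes of HIF partners and its degradation, 7 had negative differences, the median of all 11 was -0.18, and Rbx1, a subunit of the VHL ubiquitin ligase, differed by -0.66 (SE 0.23, adjusted p = 0.723) with overlap.

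The 27 tested genes of a list of hypoxia-inducible genes had a median difference of -0.01, with 12 positive and 15 negative. Anxa2 (annexin A2), also known from myeloid cells, had 8.04, 8.03 and 7.95 in G-CSF arrays, against 6.58, 7.34 and 6.92 in PBS arrays, a difference of 1.06 (SE 0.21, adjusted p = 0.29). Pygl, the liver-type glycogen phosphorylase, had 8.30, 9.31 and 8.92 in G-CSF arrays, against 7.68, 8.25 and 8.12 in PBS arrays (difference 0.83, SE 0.29, adjusted p = 0.726). Every G-CSF array of both genes lay above every PBS array. Zfp36l1, an RNA-binding protein, differed by 0.75 (SE 0.31, adjusted p = 0.822) with overlap. Without overlap, 3 genes of the list were higher and 2 lower, against 5.77% and 5.05% of all tested genes. The third higher gene was Car12 (0.21, SE 0.15), and the lower ones were Kdm3a (-0.35, SE 0.17) and Mxi1 (-0.36, SE 0.16). In the pentose phosphate pathway, Rpe (ribulose phosphate epimerase) differed by 0.61 (SE 0.24, adjusted p = 0.789) without overlap and 5 of 6 tested genes had positive differences. The transporter Slc2a6, known from leukocytes, differed by 0.41 (SE 0.18, adjusted p = 0.822) and G6pc3, a glucose phosphatase whose loss causes neutropenia, by -0.41 (SE 0.17, adjusted p = 0.822), both without overlap.

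**Figure D5:**
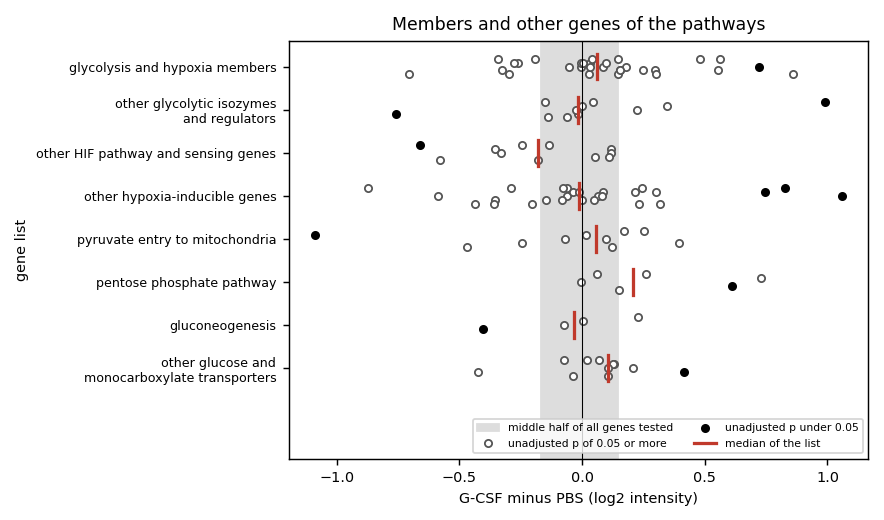
G-CSF minus PBS differences (log2 intensity) of the tested members and of 7 other lists, 1 point per gene, filled where the unadjusted limma p was under 0.05. Red bars are list medians and the grey band spans all tested genes between their quartiles. Pdha1 (-1.09) and Anxa2 (1.06) are the outermost points.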

How the data were processed

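The 6 MoGene 1.0 ST arrays were analysed. The deposited intensity values were made by RMA per the submitters' processing notes, whose software and version are not given in these sources. Intensities between 2.7 and 19069 (median 58.8) show a linear scale, and log2 was taken. Of 35554 probesets, 21789 had 1 gene symbol in the platform annotation, 1621 had several and 12144 were not listed. The lowest 25% of 1-symbol probesets by mean over all arrays (log2 up to 5.15) were left out, and the highest probeset stood for a gene. This limit is no measured background.

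Groups were compared with limma 3.58.1 (R 4.3.3; lmFit and eBayes, no covariate), with Benjamini-Hochberg adjustment over 14994 genes, two-sided, threshold 0.05. The median residual SD was 0.256, with 3.23 prior degrees of freedom. Log2 ratios of isozymes within an array were compared by exact two-sided permutation over arrays. Alternatives were the filter, normalization, variance model, array weights, probeset rule, an offset of 16, the replicate number as a block, and leaving out each array. The replacement of a member's probeset by its second was added after seeing the data. The members and lists were chosen with earlier results of these data known. All members are named. Values per array were set for members without overlap between groups, at an unadjusted p under 0.05 or with the largest difference of their step. Those of Hif1a, Slc2a3, Hk1, Ldha, Pdk4 and Bnip3 were added after seeing them. Other pathway genes are named if at an unadjusted p under 0.05 without overlap, at most 4 per list, and Rbx1, Zfp36l1, Car12, Kdm3a and Mxi1 were added. Figures were drawn with matplotlib 3.10.9.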

Additional observations from a re-analysis of the deposited data

How the results depend on the processing

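Under the 16 alternatives run, no tested member passed after adjustment (smallest limma adjusted p = 0.421, Pfkfb3 with the replicate block), and 14 of the 30 members kept 1 sign throughout while 16 changed sign at least once, none of them called. The number of genes past the threshold, 4, was 12 with quantile normalization again, 2 with arrays centred on the median, 2 with an offset of 16, and 0 to 6 with each array left out. Members at an unadjusted p under 0.05 and higher in G-CSF numbered 2 in place of 1 with quantile normalization again, and 1 to 3 with each array left out, where 0 to 2 were lower. Members without overlap numbered 3 to 5 higher and 0 to 3 lower with each array left out, when fewer arrays make separation easier. Other pathway genes at an unadjusted p under 0.05 then numbered 3 to 6 higher and 1 to 5 lower. The median of the pyruvate dehydrogenase kinases, 0.0032, was -0.21 with no filter and -0.35 with the lowest 50% left out, since Pdk4 enters the first and Pdk2 leaves the second. With the replicate number as a block, 5 genes passed and 2 members were at an unadjusted p under 0.05. Over all tested genes, 473 were then higher and 737 lower at a limma unadjusted p under 0.05, against 410 and 495 without the block. The numbers were not taken to pair the arrays, because the labels state no pairing. The deviations of same-numbered arrays correlated at 0.29, 0.02 and 0.19, and 5 of 6 arrays correlated best with their own number. That is a hint of pairing from the data and not from the design. With 3 arrays per group and a median SE of 0.25 over the members, differences well under 2-fold were not resolved.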
